A study of Mus musculus with 6 samples.

Results

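The unfolded protein response of the endoplasmic reticulum (ER) was followed through 10 genes, Hspa5, Hsp90b1, Calr, Pdia4, Sdf2l1, Dnajb9, Herpud1, Xbp1, Atf4 and Ddit3, which were matched by symbol among the 32285 genes counted. All 10 were found. Captured RNA molecules, counted by their unique molecular identifiers (UMIs), were summed over the cells of each immune class in each library, and libraries of mice that received 2DG were compared with the other libraries. Cells came from 6 mice, 1 per library: a control, 2-Deoxy-D-glucose (2DG), 2DG plus anti-PD-L1, 2F-Peracetyl-Fucose (2FF), 2FF plus anti-PD-L1, and finally anti-PD-L1 alone (written aPDL1 in the labels). The paper describes orthotopic tumors in female C57BL/6 mice, grown from the mouse ovarian cancer line KPCA, which is proficient in homologous recombination. The labels give the tissue as lymph node, and the design text mentions aged and young mice, although no library has an age. All mice thus carried the same tumor line. 2DG was injected once tumors were palpable, 2FF was given by gavage to mice whose tumor cells had also been pretreated with 2FF, and the control mouse received solvent and rat IgG. Since each treatment was 1 mouse, a treatment and the mouse and library that carried it cannot be told apart, and p-values below measure only the spread between these 6 libraries.

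Proteins that enter the ER are folded by the chaperones HSPA5 (BiP), HSP90B1 (GRP94) and calreticulin and by disulfide isomerases such as PDIA4. When unfolded proteins build up, the sensors IRE1, PERK and ATF6 are released from BiP. IRE1 splices Xbp1 mRNA, PERK favors translation of ATF4, which turns on Ddit3 (CHOP), and cleaved ATF6 moves to the nucleus. Their factors raise chaperones and genes of ER-associated degradation such as Herpud1. 2DG is a glucose analog that hinders glycolysis and, as a mimic of mannose, the assembly of N-glycans, which many ER proteins need to fold. 2FF is a fucose analog that lowers fucosylation. These statements are textbook background. In immune tissue the same machinery is known to be prominent in antibody-secreting plasma cells. Counts of total Xbp1 RNA do not show its splicing, and those of Atf4 do not show its translation.

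The promoters of these genes hold short sequences through which the response acts, and those found are shown because they tell which genes share a known ER stress element. In the GENCODE annotation of GRCm38 the protein-coding genes lie at chr2:34771970-34777547 (Hspa5), chr10:127290774-127296288 (Ddit3), chr15:80255184-80257541 (Atf4), chr11:5520659-5525893 (Xbp1), chr12:44205559-44210326 (Dnajb9), chr8:94386438-94395377 (Herpud1), chr16:17130138-17132383 (Sdf2l1), chr10:86690209-86705509 (Hsp90b1), chr6:47796141-47813430 (Pdia4) and chr8:84841850-84846934 (Calr). All 10 genes matched a RefSeq promoter window of GRCm38.p6, taken from 250 bases before to 50 bases after the start. The ER stress element (ERSE, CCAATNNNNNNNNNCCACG, read on both strands) is bound by NF-Y and ATF6. It was present in the windows of 3 of the 10 genes, Hspa5, Hsp90b1 and Calr, and in 39 of 32851 promoter windows of the genome (0.119%). The windows of 30 bases around it read, 5′ to 3′ on the strand of the gene and with the letters of the element in capitals:
Hspa5 (chr2:34772020-34772049, plus strand): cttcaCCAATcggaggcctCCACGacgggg
Hsp90b1, distal (chr10:86705632-86705661, minus strand): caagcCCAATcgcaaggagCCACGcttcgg
Hsp90b1, proximal (chr10:86705527-86705556, minus strand): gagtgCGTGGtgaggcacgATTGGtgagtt
Calr (chr8:84847069-84847098, minus strand): caacgCGTGGtcgaccctcATTGGcccata
The element lay on the strand opposite to the gene in Calr and in the proximal Hsp90b1 window. It began 65 bases before the RefSeq start in Hspa5, 162 in Calr, and 212 and 107 in Hsp90b1. The GENCODE gene model of Hspa5 starts further upstream, at position 34771970 of chromosome 2, so that the Hspa5 window lies inside that model.

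Herpud1 carried 2 other elements. ERSE-II (ATTGGNCCACG) was present in 12 of the 32851 windows (0.0365%), and the CCAAT-enhancer binding protein and ATF4 response element (CARE, TGATGCAA) in 294 (0.895%). No overlap between the motifs of the 2 windows was found.
Herpud1, ERSE-II (chr8:94386368-94386397, plus strand): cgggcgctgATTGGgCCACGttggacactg
Herpud1, CARE on the opposite strand (chr8:94386306-94386335, plus strand): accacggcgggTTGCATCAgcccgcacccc
The XBP1 site UPRE (TGACGTGG) was in no window of the 10 genes and in 222 of the 32851 (0.676%). A match of letters is a description of these windows and not evidence of binding.

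Libraries held 61859753 to 73885214 UMIs and 7703 to 9222 cells after cells with fewer than 250 genes or over 5% mitochondrial UMIs were left out. Pairs of libraries shared 16 to 34 cell barcodes. Levels are given as CPM, where 10000 CPM means 1% of the UMIs of that class in that library. Marker genes placed cells in 12 classes, of which 9 had at least 20 cells in every library and were tested. Monocytes were 25.2%, macrophages 17.6%, CD8 T cells 15.1% and B cells 2.47% of the cells kept. Markers that the gates did not use were higher in their own class than in any other for T cells, NK cells, B cells, neutrophils, macrophages and dendritic cells (DCs). Those of monocytes (Ly6c2, Ccr2, Lyz2) ran from 3538 to 7566 summed CPM in monocytes and reached 3911 in macrophages. The control library stood apart in composition. It held 2189 neutrophils against 199 to 382 in the other 5, only 114 CD8 T cells against 1093 to 1933, and 21 NK cells against 96 to 302. Values without it are given for Pdia4 in monocytes, Ddit3 in neutrophils and the neutrophil median of the members. Other 2DG differences of single genes include the control library and may move without it.

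By median over the 9 tested classes, the chaperones were highest in macrophages, apart from Pdia4, which was highest in B cells. All orders of classes given here and in the next paragraphs cover these 9 only. Plasma cells and pDCs (plasmacytoid dendritic cells), described after them, were higher for some genes. Levels are compared only between classes or libraries for the same gene. Hspa5, the master chaperone of the ER lumen, was highest in macrophages, at 917 to 1179.5 CPM (median 1084.5, 6 libraries), above DCs in 6 of 6 libraries with no overlap of the ranges. DCs followed at 681 to 768 CPM and monocytes at 608 to 823 CPM. Below macrophages each class overlapped the next one in this order, down to Tregs at 371 to 477 CPM. Neutrophils, with a median of 515.5 CPM, reached 932 CPM in the control library, above the 917 CPM of its macrophages.

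Hsp90b1, the ER form of HSP90 that folds integrins and Toll-like receptors, had the same top class. It measured 545 to 634 CPM in macrophages and 350.3 to 403 CPM in DCs, ranges that did not overlap. B cells, with a median of 359.6 CPM, reached 602 CPM in the 2FF library, inside the macrophage range. Neutrophils were far below the other classes, at 72.7 to 148 CPM, against 227 CPM in the lowest library of the next class, Tregs. Calr, the lectin chaperone that binds glucose-trimmed N-glycans, was again highest in macrophages (611 to 872 CPM) and lowest in neutrophils (79.96 to 128 CPM), and only the step from NK cells to neutrophils had no overlap. Pdia4, a disulfide isomerase, was highest in B cells (70.0 to 121 CPM) and macrophages (66.7 to 91.9 CPM). These 2 classes stood clear of the Tregs next in order by median, which ranged from 34.4 to 57.1 CPM. Monocytes, with a lower median, reached 70.9 CPM in the control library, inside the ranges of B cells and macrophages. In neutrophils Pdia4 rested on 1 to 52 UMIs per library (0.90 to 6.65 CPM).

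The co-chaperones and the degradation gene had other orders. Sdf2l1, a partner of HSPA5, was highest in macrophages (68.4 to 118 CPM) and DCs (74.3 to 119.6 CPM), both above monocytes in every library. It was lowest in neutrophils, where 1 to 28 UMIs per library were counted. Dnajb9 (ERdj4), a J-domain protein that holds IRE1 in check, was highest in B cells (86.5 to 163 CPM) and neutrophils (78.6 to 277 CPM), and no step in its order of classes was free of overlap. Herpud1, an adaptor of the HRD1 ubiquitin ligase at the ER membrane, was highest in DCs (136 to 206 CPM), above B cells in 6 of 6 libraries although the ranges overlapped. Its lowest median was in neutrophils, at 32.7 CPM.

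Ddit3 and Xbp1, which encode transcription factors, were highest in neutrophils. Ddit3, the factor CHOP, had 41.6 to 246 CPM in neutrophils and 27.6 to 41.2 CPM in NK cells, the class next in order. These ranges did not overlap but nearly met. In the 2DG library neutrophils had 41.58 CPM (46 UMIs) and NK cells 41.24 CPM (44 UMIs). All other classes lay between 10.7 and 34.1 CPM. Xbp1 had 244 to 468 CPM in neutrophils and 203 to 267 CPM in monocytes, and its lowest median was in CD8 T cells (35.5 CPM). Atf4, the factor translated under PERK signaling, varied least, with medians from 90.7 CPM in Tregs to 162 CPM in NK cells. Only the step from CD4 T cells to Tregs was free of overlap for Atf4.

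**Figure D1:**
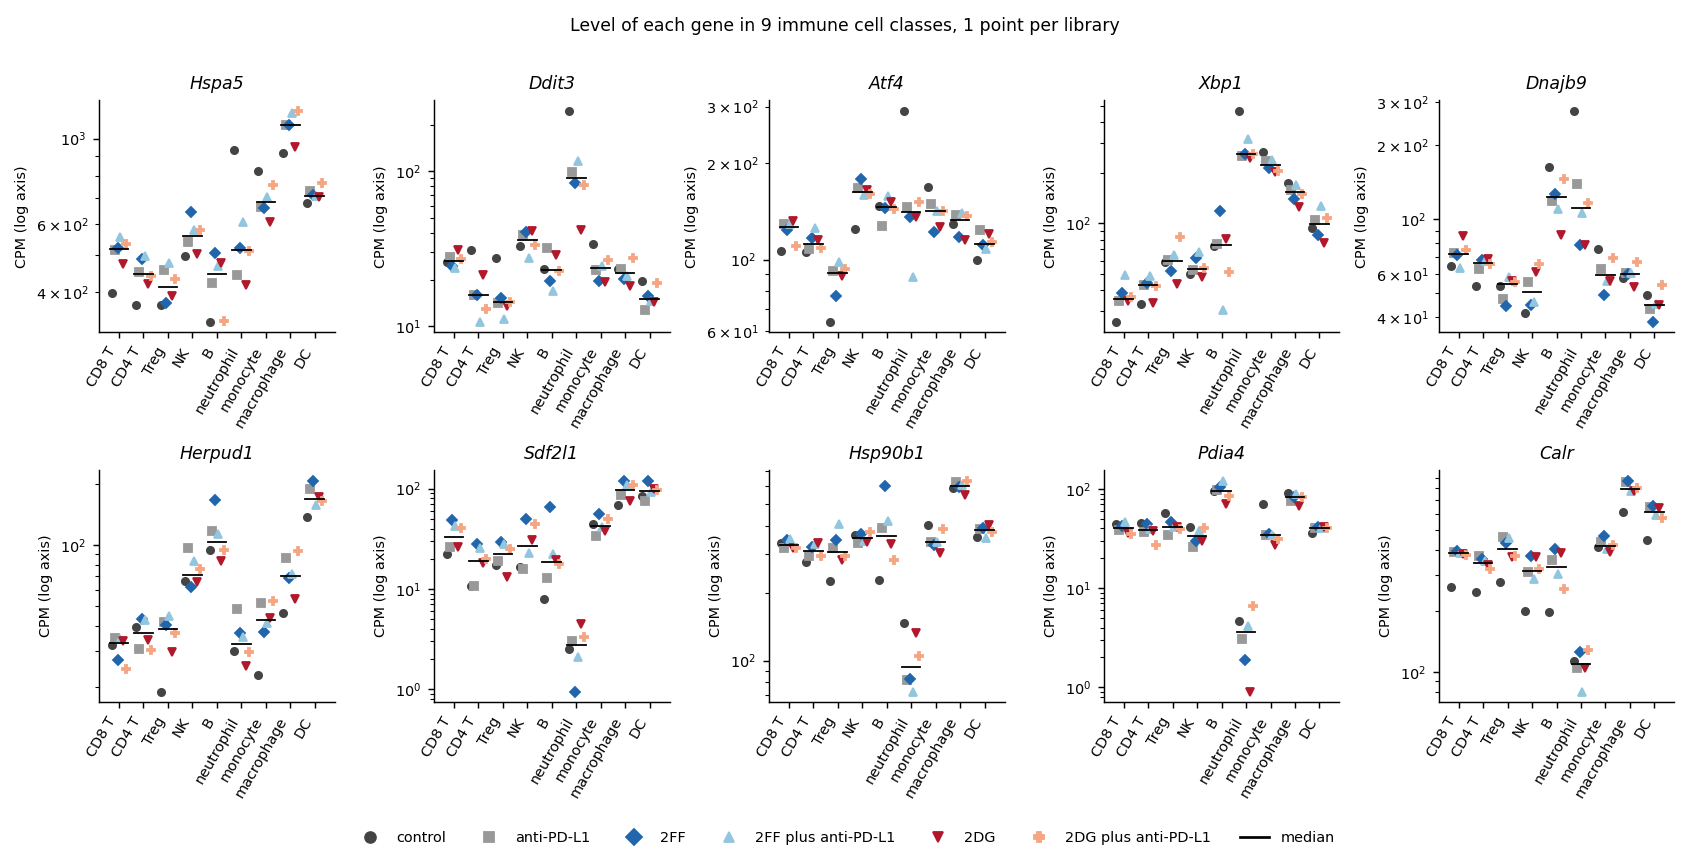
Level of each gene in CPM (log axis) in 9 cell classes, 1 point per library, with the median over the 6 libraries as a bar. By median, Hspa5, Hsp90b1 and Calr were highest in macrophages, Ddit3 and Xbp1 in neutrophils and Herpud1 in DCs. The control neutrophils stood above the other neutrophil libraries for Ddit3 (246 CPM) and Hspa5 (932 CPM).

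Plasma cells, plasmacytoid DCs (pDCs) and tumor cells were too few to compare by treatment and were pooled over the 6 libraries, with exact Poisson intervals that cover counting error only. In 59 plasma cells Hsp90b1 reached 3143 CPM (95% interval 3043 to 3246), Hspa5 1738 CPM (1664 to 1815) and Xbp1 1133 CPM (1073 to 1196). Herpud1 was at 683 CPM, Pdia4 at 469 CPM and Sdf2l1 at 267 CPM, each above every library of the 9 tested classes. Ddit3 was at 17.7 CPM in the same cells, within the range of the other classes. The 166 pDCs had 286 CPM of Herpud1 (260 to 314) and 674 CPM of Hsp90b1, each above every library of the 9 tested classes. The 63 cells with tumor markers had 851 CPM of Hspa5 and 849.5 CPM of Hsp90b1 and only 23.1 CPM of Herpud1.

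No member of the response passed the test for a 2DG difference in any class. The 2 libraries with 2DG were compared with the 4 without by edgeR's quasi-likelihood test with anti-PD-L1 as a covariate, over all genes with at least 60 UMIs in the class and with Benjamini-Hochberg adjustment over them. Of 89 pairs of gene and class tested, 0 reached an adjusted p of 0.05 (smallest edgeR adjusted p = 0.999), 1 had an unadjusted p under 0.05, and DESeq2 and limma also called 0. Log2 differences were above 0 in 37 of the 89 pairs, beside 48.2% (B cells) to 51.2% (macrophages) of all genes tested in a class. Sdf2l1 in neutrophils was below the count limit and was not tested.

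The same test called few other genes. It called 0 of 12263 genes in CD8 T cells (0%), 0 of 10363 in CD4 T cells (0%), 7 of 9027 in Tregs (0.0775%), 0 of 7185 in NK cells (0%), 6 of 8298 in B cells (0.0723%), and 0 of 8194 in neutrophils (0%), 0 of 13167 in monocytes (0%), 0 of 13190 in macrophages (0%) and 0 of 11129 in DCs (0%). At an unadjusted p under 0.05 the classes had 157 to 319 genes, and DESeq2 called 0 to 12. The absence of a call for the 10 genes was therefore the rule for nearly all genes here.

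**Figure D2:**
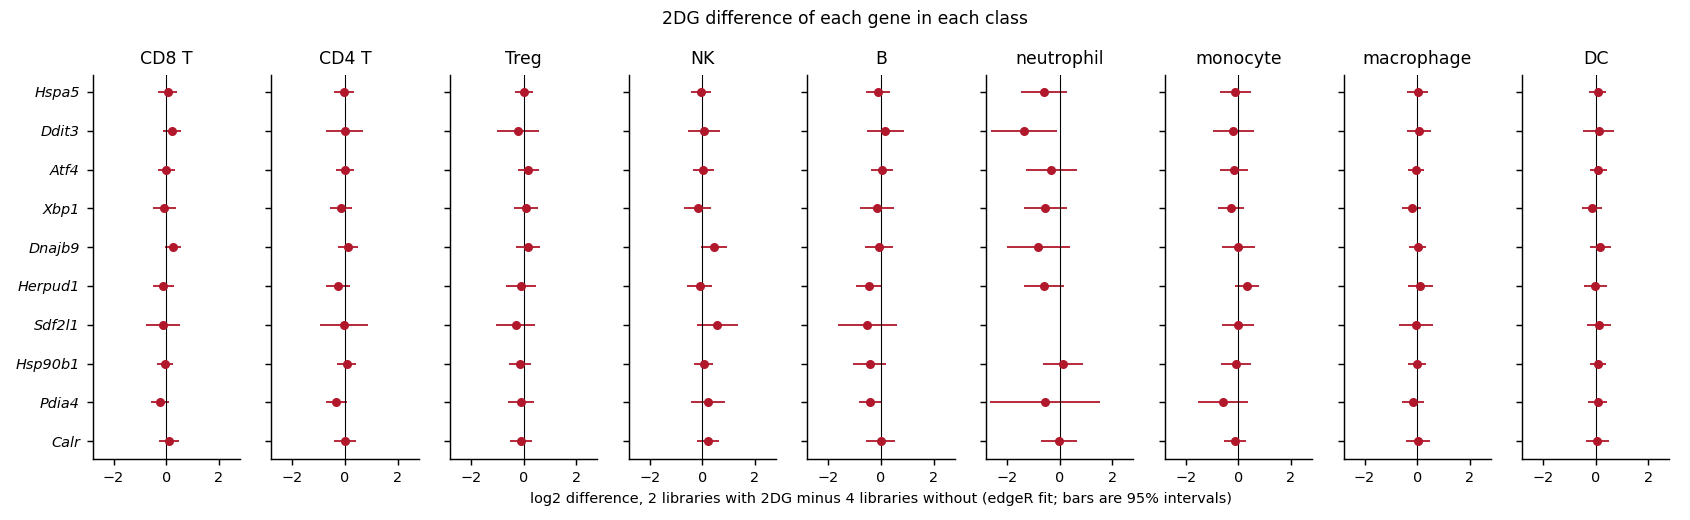
Log2 difference between the 2 libraries with 2DG and the 4 without for each gene and class, with 95% intervals from the edgeR fit. All intervals cross 0 except that of Ddit3 in neutrophils (-1.36, interval -2.61 to -0.11), which did not pass after adjustment.

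Among the chaperones, the 2 groups overlapped in every pair of gene and class but Hsp90b1 in CD8 T cells and Pdia4 in CD8 T cells, B cells and monocytes. Hspa5 in CD8 T cells had 399, 514, 521 and 555 CPM in the control, anti-PD-L1, 2FF and 2FF plus anti-PD-L1 libraries, and 473 and 533 CPM in the 2DG and 2DG plus anti-PD-L1 libraries. The 2 groups overlapped, with a log2 difference of 0.05 ± 0.16 (SE, 2 against 4 libraries). In macrophages Hspa5 had 917, 1085, 1084 and 1161.5 CPM without 2DG, and 952 and 1179.5 CPM with it (0.02 ± 0.17). Over the 9 classes the log2 difference of Hspa5 ran from -0.60 in neutrophils to 0.06 in DCs.

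Hsp90b1 was ordered by group in CD8 T cells with a small difference. Both 2DG libraries (318.6 and 318.5 CPM) lay below all 4 others (336, 319, 346 and 348 CPM), by a log2 difference of -0.04 ± 0.14. The gap to the anti-PD-L1 library was under 1 CPM, so that this order carries no size. Pdia4 was also below all others in both 2DG libraries of CD8 T cells, at 36.3 and 34.8 CPM against 44.6, 38.9, 42.6 and 46.5 CPM (-0.23 ± 0.15). In that class 5.51% of all genes had both 2DG libraries lowest.

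Pdia4 was lowest in both 2DG libraries in B cells and monocytes too. In B cells it had 70.0 and 85.8 CPM with 2DG, and 94.4, 97.3, 105 and 121 CPM without (-0.41 ± 0.20). In monocytes it had 27.0 and 31.4 CPM with 2DG, and 70.9, 34.2, 35.5 and 34.3 CPM without (-0.59 ± 0.39). In monocytes the control library stood apart, and without it the log2 difference was -0.24. Genes with both 2DG libraries lowest were 6.03% of those tested in B cells and 4.13% in monocytes. Over the 9 classes Pdia4 had a negative log2 difference in 7, and positive ones in NK cells (0.20 ± 0.31) and DCs (0.08 ± 0.16). Calr had no class in which the groups were apart, and its log2 differences ran from -0.13 in monocytes to 0.21 in NK cells.

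Dnajb9 was the gene with both 2DG libraries highest, in CD8 T cells and NK cells. In CD8 T cells it had 85.9 and 74.9 CPM with 2DG, and 64.4, 73.3, 71.5 and 63.4 CPM in the control, anti-PD-L1, 2FF and 2FF plus anti-PD-L1 libraries. The log2 difference was 0.26 ± 0.14. In NK cells it had 60.9 and 65.6 CPM with 2DG and 41.5, 55.5, 45.0 and 45.9 CPM without, a difference of 0.43 ± 0.23. The control value there rested on 5 UMIs in 3 of 21 cells, and the 2FF value on 21 UMIs. Genes with both 2DG libraries highest were 3.33% of those tested in CD8 T cells and 3.72% in NK cells, so that 1 of 10 members in each is not far from the share of all genes. Dnajb9 was below 0 in neutrophils (-0.81 ± 0.54), where the control library had 277 CPM and the 2FF and 2DG libraries both 78.6 or 78.7 CPM.

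Sdf2l1, the other co-chaperone, ranged from -0.52 ± 0.52 in B cells to 0.58 ± 0.37 in NK cells, with the groups overlapping in all 8 classes tested. The libraries without 2DG include both 2FF libraries. In B cells Sdf2l1 had 19.2 and 17.9 CPM in the 2DG and 2DG plus anti-PD-L1 libraries. It had 7.87 and 12.7 CPM in the control and anti-PD-L1 libraries, and 66.0 and 22.2 CPM in the 2FF and 2FF plus anti-PD-L1 libraries. Herpud1 had both 2DG libraries lowest in B cells, at 83.8 and 94.3 CPM against 94.4, 117, 167 and 113 CPM (-0.46 ± 0.23). The control and the 2DG plus anti-PD-L1 library differed there by less than 1 CPM. B cells also differed in some markers of the plasma cell gate. Jchain was at 1381 CPM in the 2DG library, 697 CPM in the 2FF library and 103 to 224 CPM in the other 4. Mzb1 was at 598 CPM in the 2FF library against 184 to 343 CPM, and was lowest in the 2DG library. Sdc1 was at 5.25 CPM or less and Tnfrsf17 at 0.77 CPM or less in every library. Single cells also weighed in these sums. Among the 119 B cells of the 2DG library, the cell with the most UMIs of a gene held 7.94% (Dnajb9) to 50.9% (Xbp1) of them. For Sdf2l1 it held 50% of 14 UMIs, and for Herpud1 26.2% of 61. In control B cells the top cell held 66.7% of 3 Sdf2l1 UMIs and 50% of 28 Xbp1 UMIs. The part of these markers and of single cells in the B cell values was not tested.

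Of the transcription factors, Ddit3 in neutrophils was the pair with the smallest unadjusted p of the 89. It had 246, 98.5, 83.5 and 116 CPM in the control, anti-PD-L1, 2FF and 2FF plus anti-PD-L1 libraries, and 41.6 and 81.4 CPM in the 2DG and 2DG plus anti-PD-L1 libraries. Both 2DG libraries were below all others, the second by a small margin. The log2 difference was -1.36 ± 0.56 (unadjusted p = 0.0359 from the edgeR model over all genes, not passing after adjustment), and -0.75 without the control library. Genes with both 2DG libraries lowest were 3.39% of those tested in neutrophils, and genes with both highest 11.8%. Ddit3 in other classes ran from -0.22 in Tregs to 0.22 in CD8 T cells.

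Xbp1 was below 0 in 8 of 9 classes and had both 2DG libraries lowest in monocytes. Those held 203 and 206 CPM against 267, 235, 213 and 237 CPM (-0.28 ± 0.20). In macrophages Xbp1 had 126 and 149 CPM with 2DG and 173, 159, 139.5 and 168 CPM without (-0.20 ± 0.15), and the groups overlapped. The exception was Tregs at 0.09 ± 0.22. Atf4 ran from -0.17 in monocytes to 0.17 in Tregs, with -0.31 ± 0.44 in neutrophils.

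The remaining shares of genes with separated groups give the scale for the classes in which no member was apart in that direction. Both 2DG libraries were highest for 3.61% of genes in CD4 T cells, 3.56% in Tregs, 4.71% in B cells, 5.37% in monocytes, 3.26% in macrophages and 3.76% in DCs. Both were lowest for 4.35% in CD4 T cells, 6.21% in Tregs, 5.07% in NK cells, 3.64% in macrophages and 3.4% in DCs. Over all classes 2 pairs were above and 7 below, of 89.

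As a group, the 10 genes had median log2 differences of -0.02 in CD8 T cells, -0.02 in CD4 T cells, -0.10 in Tregs, 0.06 in NK cells, -0.13 in B cells, -0.56 in neutrophils (9 genes), -0.12 in monocytes, 0.00 in macrophages and 0.08 in DCs. The median over all genes tested ran from -0.01 to 0.01. In neutrophils the members' median was -0.17 without the control library. With all 6 libraries it fell on Pdia4 (-0.56 ± 0.94), which had 1 and 4 UMIs in the 2DG libraries. The median of the standard errors of single members was 0.16 in CD8 T cells, 0.17 in macrophages and 0.40 in neutrophils, so that differences of the size seen in most classes were not detectable with these libraries. The difference of the 2DG effect between macrophages and CD8 T cells was also tested, in 1 fit over both classes. Of 14741 genes, 0 passed (317 at an unadjusted p under 0.05), and of the 10 members 0 passed and 0 had an unadjusted p under 0.05. The difference ranged from -0.28 ± 0.18 for Dnajb9 to 0.17 ± 0.27 for Herpud1.

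Matched pairs of single libraries show how far the 2 backgrounds differed. They set 2DG over control, and the combination with 2DG over anti-PD-L1 alone, as log2 ratios of CPM + 5, with no replicate and no test. In CD8 T cells the median over the 10 genes was 0.23 without anti-PD-L1 and -0.02 with it, beside 0.01 and -0.06 over all genes. In neutrophils it was -0.82 and 0.05 (all genes 0.24 and 0.07), and in monocytes -0.40 and 0.08 (all genes 0.16 and -0.06). Within a class, 2 to 7 of the 10 genes had the same sign in both backgrounds. Over the 9 classes Sdf2l1 was above 0 in 7 for 2DG over control and in 9 with anti-PD-L1, and Hspa5 in 7 and 6. In the same order Dnajb9 was above 0 in 4 and 8, Calr in 7 and 2, and Pdia4 in 1 and 5. Atf4 was above 0 in 6 and 4, Herpud1 in 5 and 2, Hsp90b1 in 4 and 5, Xbp1 in 3 and 5, and Ddit3 in 3 and 4.

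The control neutrophils had the highest levels of several stress genes. Hspa5 was at 932 CPM in them and at 418 to 606 CPM in the other 5 libraries. Atf4 was at 291 CPM against 88.3 to 151 CPM, Xbp1 at 468 CPM against 244 to 317 CPM, and Dnajb9 at 277 CPM against 78.6 to 139 CPM. For Calr and Herpud1 the same library lay within the range of the other 5. Control neutrophils had a median of 3977 UMIs per cell against 2468.5 to 3186 in the others. Of the 3 genes used above to check monocytes, Lyz2 was at 292 CPM in them against 1473 to 2157 CPM and Ly6c2 at 51.4 CPM against 176 to 361 CPM. Ccr2, at 11.6 CPM, was within the 5.19 to 17.2 CPM of the others. Il1r2 was at 3839 CPM in them against 4906 to 6883 CPM, while S100a8 and S100a9 were within the range of the others. The macrophage markers C1qa, C1qb and C1qc were each at 23.7 CPM or less in every library. Cytosolic heat shock genes summed to 2507 CPM in control neutrophils and 1156 to 1885 CPM in the others. The part of these in the neutrophil result was not tested.

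**Figure D3:**
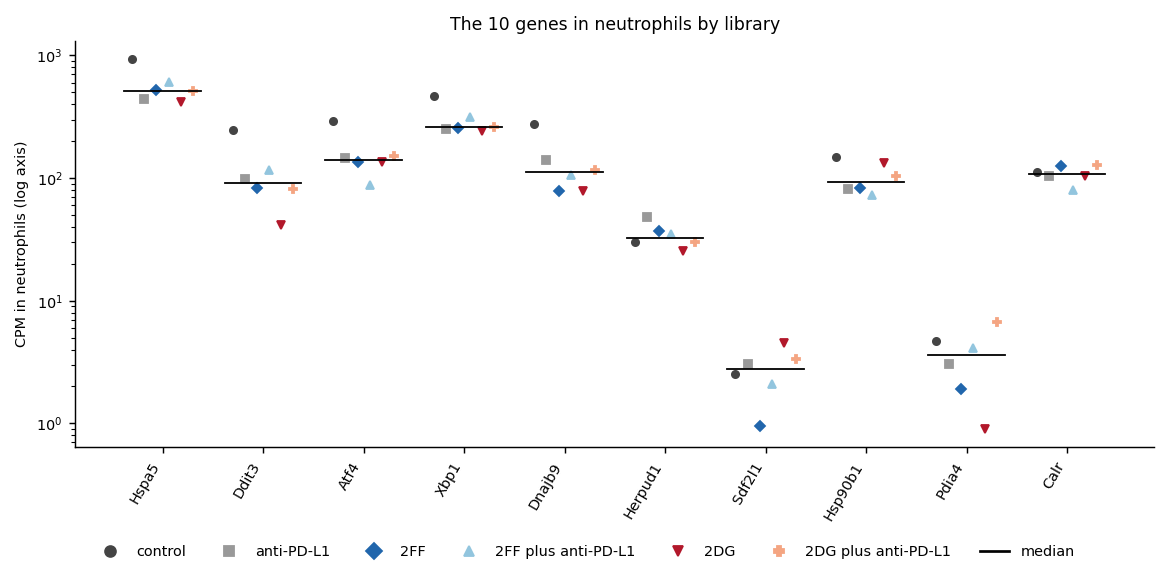
CPM of each gene in neutrophils (log axis), 1 point per library, with the median as a bar. Points are to be compared within a gene. The control library was highest for Hspa5, Ddit3, Atf4, Xbp1, Dnajb9 and Hsp90b1, and Sdf2l1 and Pdia4 rested on few UMIs.

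For Calr the control library was the lowest in the lymphocyte classes, macrophages and DCs. In CD8 T cells Calr had 261 CPM in the control library and 376 to 394 CPM in the other 5. In CD4 T cells it had 246 CPM against 319 to 371 CPM, and in B cells 197 CPM against 255 to 403 CPM. Calr was lowest in the control library in 7 of 9 classes, and Hspa5 in 7 of 9. Summed over genes and classes, the control library was lowest in 35 and highest in 22 of 90 pairs, more than any other library for the lowest place, and equal to the 2FF library (22) for the highest. The same places were not counted over all genes, so these counts and the 7 of 9 classes have no scale. Classes of a library share its mouse. The control library also held few lymphocytes, such as 21 NK cells and 68 B cells.

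Sdf2l1 was highest in the 2FF library in 8 of 9 classes, a count that was not made over all genes. In CD4 T cells it had 28.0 and 25.8 CPM in the 2FF and 2FF plus anti-PD-L1 libraries, 10.7 and 10.8 CPM in the control and anti-PD-L1 libraries, and 18.2 and 20.1 CPM in the 2DG libraries. In macrophages the corresponding values were 118 and 109 CPM, 68.4 and 85.6 CPM, and 75.1 and 109.5 CPM. Sdf2l1 was thus highest in the 2FF library in both classes. In CD8 T cells the pairs were 48.4 and 42.2 CPM for 2FF, 22.3 and 26.3 CPM for control and anti-PD-L1, and 26.1 and 40.0 CPM for 2DG. In B cells Sdf2l1 had 66.0 CPM in the 2FF library and 22.2 CPM or less in the other 5. Igkc and the plasma cell gate marker Mzb1 were also high in the 2FF B cells. Igkc was at 25754 CPM against 4835 to 15050 CPM, and Mzb1 at 598 CPM against 184 to 343 CPM. Of the other gate markers, Jchain was at 697 CPM there and at 1381 CPM in the 2DG B cells, and Sdc1 was at 0 and Tnfrsf17 at 0.62 CPM in the 2FF B cells. The part of these genes in the Sdf2l1 value was not tested.

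After these values had been seen, a 2FF term was added to the fit beside 2DG and anti-PD-L1, so that the 2FF libraries were compared with the control and anti-PD-L1 libraries. The 2FF log2 difference of Sdf2l1 was 1.36 ± 0.30 in CD4 T cells (edgeR adjusted p = 0.591), 1.75 ± 0.49 in B cells (0.562), 0.93 ± 0.25 in CD8 T cells (0.997), 0.65 ± 0.20 in macrophages (0.541) and 0.44 ± 0.16 in DCs (0.384). Each of these 5 had an unadjusted p under 0.05, and none passed the adjusted threshold. In NK cells (1.04 ± 0.54), Tregs (0.66 ± 0.39) and monocytes (0.25 ± 0.29) the unadjusted p was above 0.05. The largest of these differences rested on few molecules. The control and anti-PD-L1 libraries held 10 and 27 UMIs of Sdf2l1 in CD4 T cells, 3 and 14 in B cells and 2 and 16 in NK cells. Over all classes the 2FF term called 33 of 92816 pairs of gene and class (0.0356%) and 0 of the 89 of the members. Of the 89, 11 had an unadjusted p under 0.05, and the share of all genes at that p was not counted. Beside Sdf2l1 these were Xbp1 in CD8 T cells (0.53 ± 0.20) and Hsp90b1 in Tregs (0.46 ± 0.19) and B cells (0.71 ± 0.29). Differences below 0 were those of Ddit3 in CD4 T cells (-0.74 ± 0.30) and of Dnajb9 (-1.26 ± 0.48) and Atf4 (-1.02 ± 0.41) in neutrophils. The 2DG and 2FF comparisons share the control and anti-PD-L1 libraries.

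**Figure D4:**
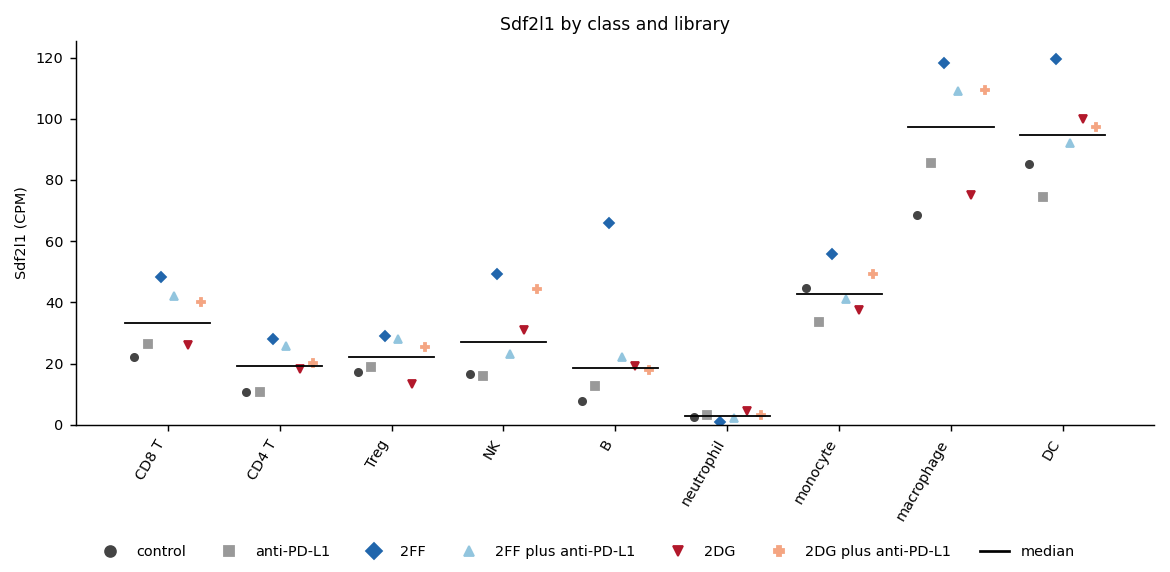
Sdf2l1 in CPM by class, 1 point per library, with the median over libraries as a bar. The 2FF library was highest in every class but neutrophils, where 0.95 CPM rested on 1 UMI.

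The anti-PD-L1 term of the main fit, also read after the data had been seen, called 0 of the 89 members' pairs, with 6 at an unadjusted p under 0.05. The term called 6 of 92816 pairs of gene and class (0.00646%), and the share of all genes at an unadjusted p under 0.05 was not counted. Its smallest adjusted p among the members was 0.469, for Xbp1 in DCs (0.44 ± 0.15). The smallest unadjusted p was that of Xbp1 in B cells, with the opposite sign (-0.86 ± 0.29, edgeR unadjusted p = 0.011, adjusted p = 0.930). The others of the 6 were Xbp1 in Tregs (0.47 ± 0.21), Ddit3 in CD4 T cells (-0.68 ± 0.30) and Herpud1 in monocytes and macrophages. For Herpud1 the anti-PD-L1 log2 difference was 0.52 ± 0.18 in monocytes (edgeR adjusted p = 0.980) and 0.59 ± 0.19 in macrophages (0.999). In macrophages it had 46.3, 68.5 and 54.5 CPM in the control, 2FF and 2DG libraries and 86.4, 71.6 and 93.9 CPM in the same order with anti-PD-L1. In monocytes it had 22.9, 37.2 and 43.8 CPM without anti-PD-L1 and 52.0, 41.5 and 53.1 CPM with it, and the groups overlapped. The same term was 0.42 ± 0.26 in Tregs, 0.38 ± 0.22 in NK cells and 0.27 ± 0.32 in neutrophils. It was 0.02 ± 0.18 in CD8 T cells, -0.13 ± 0.19 in CD4 T cells, -0.12 ± 0.22 in B cells and 0.02 ± 0.18 in DCs.

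The other genes of the pathway were followed in 6 lists, with a seventh of dissociation and immediate early genes such as Fos and Jun. None of their genes passed the 2DG test in any class by edgeR. DESeq2 calls were counted for the first 6 lists only, and were 0 in each class. At an unadjusted p under 0.05 there were 2 of 63 pairs for sensors, 1 of 143 for ER folding, 1 of 99 for ER-associated degradation and 1 of 135 for ER translocation. There were 5 of 150 for PERK and ATF4 targets, 13 of 90 for cytosolic heat shock and 3 of 108 for immediate early genes. Among all genes tested, the share at that p was lowest in macrophages (157 of 13190 genes) and highest in Tregs (319 of 9027). Ern1, which encodes IRE1, was the highest sensor gene in CD8 T cells (0.57 ± 0.22) and NK cells (0.48 ± 0.17) and the lowest in B cells (-0.90 ± 0.65), neutrophils, monocytes and DCs. Atf6 was the highest in monocytes, macrophages and DCs, and Eif2s1, the translation factor that PERK phosphorylates, in Tregs, B cells and neutrophils (1.03 ± 0.49). Atf6b was the highest in CD4 T cells (0.21 ± 0.28) and the lowest in CD8 T cells and NK cells, and Mbtps2, a protease that cleaves ATF6, the lowest in CD4 T cells, Tregs and macrophages.

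Among ER folding genes, the oxidase Ero1l was the lowest in CD4 T cells, neutrophils (-1.44 ± 0.78), monocytes (-1.27 ± 0.64), macrophages (-0.70 ± 0.34) and DCs (-1.05 ± 0.44). Creld2 was the lowest in CD8 T cells and B cells, Canx (calnexin) in Tregs and Dnajc10 in NK cells. The highest were Ero1lb in CD8 T cells, Tregs and monocytes, Txndc5 in B cells and DCs, Dnajb11 in CD4 T cells, Creld2 in NK cells, Cnpy2 in neutrophils and Fkbp2 in macrophages, with values from 0.16 to 0.60. Of the degradation genes, Derl3, a channel subunit of retrotranslocation that is prominent in plasma cells, was the lowest in B cells at -2.28 ± 0.56 (edgeR adjusted p = 0.527). Edem2 was the lowest in CD8 T cells, CD4 T cells and NK cells and the highest in Tregs (0.36 ± 0.28). Edem1 was the lowest in Tregs, monocytes and macrophages, Ubxn4 in neutrophils and Syvn1 in DCs, and Nploc4, Selenos, Os9 and Syvn1 were the highest in the remaining classes, at 0.40 or less.

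In the ER translocation list, Sec61g was the highest in CD8 T cells, CD4 T cells and macrophages (0.10 to 0.23). The list also holds Sec24d, which encodes part of the coat for export from the ER. Sec24d was the highest in neutrophils at 1.28 ± 0.57, in B cells and in DCs. Srprb, Ssr4 and Sec62 were the highest in Tregs, NK cells and monocytes, and Srprb, Ssr1, Ssr2, Ssr3 and Spcs1 supplied the lowest values. Among PERK and ATF4 targets, Atf3 was the highest in B cells (0.89 ± 0.23) and DCs and the lowest in CD8 T cells and Tregs (-0.98 ± 0.47). Ppp1r15a (GADD34), which restores translation, was the highest in NK cells, monocytes and macrophages. Slc3a2, Psat1, Sesn2 and Mthfd2 were the highest in CD8 T cells, CD4 T cells, Tregs and neutrophils. Ddit4 was the lowest in B cells and neutrophils (-1.84 ± 0.82), Asns in macrophages (-0.91 ± 0.48), and Slc7a11, Phgdh, Trib3 and Eif4ebp1 in the other classes.

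Cytosolic heat shock genes, which answer unfolded proteins outside the ER, were below 0 in 82 of 90 pairs with 2DG. Of all genes tested in a class, 48.2% (B cells) to 51.2% (macrophages) were above 0. Hspa1b, an inducible HSP70 gene, was the lowest of the list in 7 of 9 classes, from -0.70 ± 0.62 in monocytes to -2.31 ± 0.80 in neutrophils, and Hsph1 in Tregs and NK cells. The highest members, Hspa8, Hsp90ab1, Hspd1, Hspe1 and Bag3, ran from -0.10 to 0.40. Summed over its 10 genes, the list was highest in the control library in 8 of 9 classes, for example at 7569 CPM in B cells against 2707 to 3884 CPM in the others. List medians ran from -0.12 to -0.67, against medians from -0.19 to 0.17 for the 5 ER lists.

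**Figure D5:**
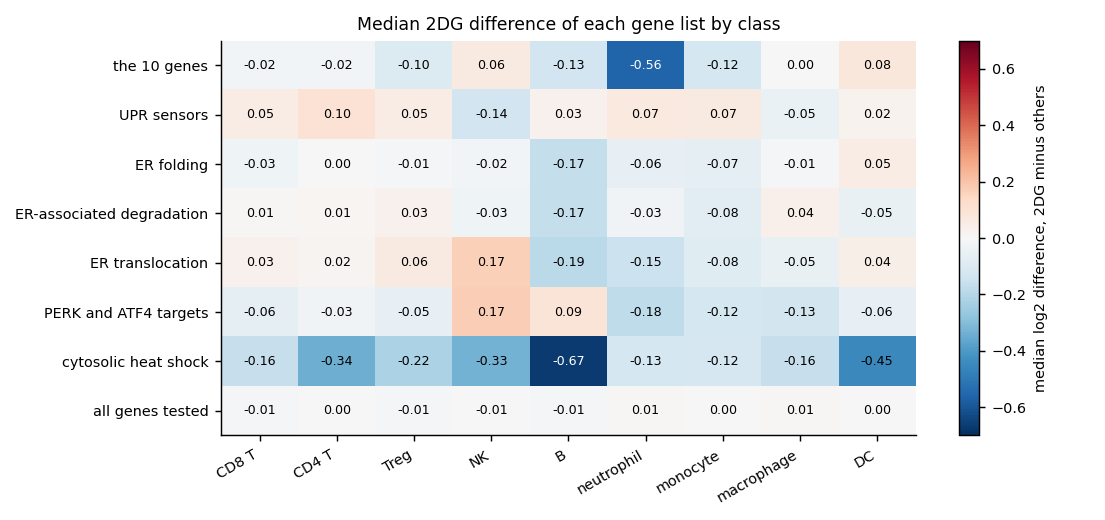
Median log2 difference between the 2 libraries with 2DG and the 4 without, for the 10 genes, for 6 lists of related genes and for all genes tested, in 9 classes. Medians of the 10 genes ran from -0.13 (B cells) to 0.08 (DCs), except in neutrophils (-0.56 for 9 genes, -0.17 without the control library). Those of the cytosolic heat shock list were below 0 in each class, from -0.12 in monocytes to -0.67 in B cells.

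The 10 genes did not share 1 pattern over classes. Across the 54 sums of class and library, on log2 of CPM + 5, the 45 pairs of genes had a median Pearson r of 0.16, from -0.72 for Ddit3 and Calr to 0.91 for Sdf2l1 and Calr. After each class was centred on its own mean, 38 of the 45 pairs were positive, with a median of 0.25 and the highest value of 0.61 for Atf4 and Dnajb9. The sums of 1 library share their mouse, preparation and depth, so these values describe the 6 libraries and carry no test. Genes outside the set that were most like its mean over classes were Rufy3 (Pearson r = 0.784), Hyou1 (0.780), H2-DMb1 (0.771), Tcf4 (0.768), Pdia6 (0.755), Ehd4 (0.750), Psd3 (0.747) and Pltp (0.747), among 6424 genes. Hyou1 and Pdia6 encode an ER chaperone and an ER disulfide isomerase. Within classes they were Bsg (0.775), Ldha (0.719), Hdlbp (0.691), Manf (0.639), Tceal9 (0.623), Tspan31 (0.607), Tbc1d20 (0.603) and Creld2 (0.6). Manf and Creld2 encode secreted ER proteins that are known to respond to ER stress.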

How the data were processed

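Deposited values are UMI counts, unnormalized, of each gene in each barcode that the authors' pipeline called a cell. The file headers name Cell Ranger 7.0.0 and the submitters' processing notes Cell Ranger 3.1.0, with mm10. Gene coordinates are from GENCODE (GRCm38, the same assembly) and promoters from RefSeq. Cells with at least 250 genes and at most 5% mitochondrial UMIs were placed in classes by a minimum number of marker genes with a UMI (for macrophages, of marker UMIs). Cells meeting no gate or several were left out (15.9% to 25.1% of a library, with T cells of no subset among them). Cells most like simulated doublets (3573) were kept, and removed in an alternative. Sums of UMI counts by class within each library were tested with edgeR 4.0.16 (TMM, at least 60 UMIs, classes with 20 cells or more per library), with DESeq2 1.42.0, limma 3.58.1, gates with 1 more marker, no low-count filter and left-out libraries as alternatives. Ddit3 has 2 gene IDs in the files, and the second (ENSMUSG00000116429) had 0 UMIs. Scripts were tested on simulated data. Genes named outside the 10 are, per list and class, the highest and lowest log2 difference where none passed, and the 8 most alike. The members, lists, gates and rules were chosen with earlier results of these data known.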

Additional observations from a re-analysis of the deposited data

Results flagged for a closer look

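Among the 4 libraries without 2DG, 6 of 89 groups of gene and class held a library far from the other 3 by Dixon's test at its 95% critical value, and all 6 were the control library. Chance flags about 1 in 20 groups. The control library was low for Calr in CD8 T cells (261 CPM against 386 to 394 CPM in the other 3), Calr in CD4 T cells (246 against 351 to 371 CPM) and Herpud1 in Tregs (19.0 against 40.4 to 44.6 CPM). It was high for Hsp90b1 in neutrophils (148 against 72.7 to 82.5 CPM), Hsp90b1 in monocytes (404 against 329 to 337 CPM) and Pdia4 in monocytes (70.9 against 34.2 to 35.5 CPM). That library held 114 CD8 T cells, 131 CD4 T cells and 75 Tregs, and the part of its makeup in these values was not tested.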

How the results depend on the processing

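The count of members called for 2DG was 0 in every alternative run, in each of the 9 classes, and the smallest edgeR adjusted p of a member was 0.12, for Ddit3 in neutrophils without both 2FF libraries. No direction of a called value turned, since none was called. Leaving out 1 library moved the median log2 difference of the members within -0.058 to 0.111 in CD8 T cells, -0.118 to 0.036 in CD4 T cells, -0.102 to 0.076 in Tregs, -0.027 to 0.123 in NK cells, -0.382 to 0.007 in B cells, -0.887 to -0.166 in neutrophils (highest without the control library), -0.405 (without the 2DG plus anti-PD-L1 library) to 0.187 (without the 2DG library) in monocytes, -0.174 to 0.115 in macrophages and 0.004 to 0.099 in DCs. It moved the number of members with every 2DG library above all others within 1 to 3 in CD8 T cells, 0 to 2 in CD4 T cells, 0 to 1 in Tregs, 1 to 3 in NK cells, 0 to 2 in neutrophils, 0 to 1 in monocytes, 0 to 5 in macrophages (5 without the 2DG library) and 0 to 2 in DCs. Fewer libraries make such order easier to reach by construction. The share over all genes was not counted for these runs or for the alternatives that follow. The counts of separated members in them therefore have no scale and are not read as results about the members. Without both 2FF libraries that number was 4 in CD4 T cells, 1 in Tregs, 3 in NK cells, 1 in B cells and 2 in DCs, and the CD8 T cell median was 0.146. With 1 more marker per gate the B cell median was -0.564 (the cause was not tested), and NK cells could not be fitted, with 14 control cells. With no filter on low counts 1 neutrophil member was above, and with simulated doublets removed 1 DC member was. Adding 1 CPM in place of 5 kept all 36 matched medians within the spread. Where a 2DG library is left out, the lone one is assumed to vary like the other groups. Each treatment is 1 mouse, so mouse and treatment cannot be told apart. The labels give no replicate numbers, so no replicate block was fitted. The anti-PD-L1 background that 2DG libraries share with their counterparts was a covariate of the fit.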
